A study of Mus musculus with 10 samples.

Results

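Cluster 2 of the mouse colonic crypt cells was the only one of 25 colonic clusters to which the deposited annotation gave a cell type name, 2_stem, whereas the other 24 carried a number and the word other. Its cells were taken as every annotated cell of the 2 colonic libraries whose cell type entry began with 2_. They numbered 270 of the 3065 annotated colonic cells and of the 25204 annotated cells of the whole series. The library of colonic crypts from normal mice gave 102 of them and the library of colonic crypts from mice treated with DSS gave 168.

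DSS is dextran sulfate sodium, a polymer that injures the colonic epithelium and is given in drinking water to cause colitis. The series holds 10 droplet single-cell RNA-sequencing libraries, 8 of intestinal organoids and 2 of colonic crypts, and each droplet read is collapsed to a unique molecular identifier (UMI), 1 per captured transcript molecule. The colonic groups differed by treatment, normal or DSS, with 1 library each. The number of mice behind each library, their genotype, and the time of collection after DSS are not given in the sources used here, and the methods name female mice for the colitis model. Because there was 1 library per treatment, no test between treatments was possible, and no p-value is given. Levels are UMI counts scaled to a total of 1000000 (CPM) of the summed cells with exact Poisson 95% intervals, ratios carry exact conditional 95% intervals and shares carry exact binomial (Clopper-Pearson) 95% intervals, all of which cover counting error only.

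Crypt base stem cells of the intestine divide throughout life and replace the epithelium above them. They are known for the R-spondin receptor Lgr5 and for a program switched on by Wnt signals, with Ascl2 as a transcription factor of the stem state, while Notch signals hold them back from the secretory fate. In the colon they share the crypt base with secretory cells, and their progeny pass through a zone of rapid division before they become absorptive colonocytes, goblet cells, enteroendocrine cells or tuft cells.

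Several properties of the libraries bear on what follows. Cluster 2 had 2460383 UMIs in the normal and 3427177 in the DSS library, with a median of 22965.5 UMIs per cell (1207 to 72901) and 19468.5 (1017 to 53567). Xist, the RNA of the inactive X chromosome, was at 681 CPM in cluster 2 of the normal library, in 94 of 102 cells, and at 0 UMIs in the DSS library, at least 777.7-fold lower at a floor of 3 UMIs (631.8-fold by the lower limit of the exact interval). Eif2s3y, a gene of the Y chromosome, was at 0 UMIs in the normal library and at 67.7 CPM in the DSS library, in 109 of 168 cells, at least 55.5-fold higher at the same floor (44.8-fold by the lower limit of the exact interval). The expression of these 2 genes thus differed in the way female and male cells do, the female mice named in the methods notwithstanding, so that treatment, sex and library cannot be told apart in any value below. The same held over all annotated colonic cells, of which 978 normal and 3 DSS cells held Xist and 0 normal and 1051 DSS cells held Eif2s3y. Many clusters lay almost wholly in 1 library, as did cluster 4 (11 normal and 230 DSS cells), cluster 14 (77 and 1) and cluster 3 (274 and 1). The 2 libraries shared 2 cell barcodes among annotated cells and 0 in cluster 2.

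Cluster 2 made up a similar share of both libraries. It held 9.01% of the 1132 annotated normal cells (7.41 to 10.8%) and 8.69% of the 1933 annotated DSS cells (7.47 to 10.0%). Cells with a UMI of Ptprc, the pan-leukocyte antigen CD45, numbered 1 and 4 in the cluster. The doublet caller Scrublet marked 11 of the 3065 colonic cells, 1 of them a normal cell of cluster 2 and 0 a DSS cell of it.

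The cluster carried the stem program that its label names. All 12 crypt base stem markers were above the other colonic cells of the same library in both libraries, and their summed level was 990 CPM in normal and 922 CPM in DSS cells of the cluster, against 203 and 332 CPM in the other cells. Lgr5, the receptor that marks these cells, was at 20.3 CPM (15.1 to 26.8) in normal and 23.9 CPM (19.03 to 29.7) in DSS cells, against 0.745 and 3.35 CPM in the other cells. Ascl2 was at 56.1 and 30.9 CPM, against 2.06 and 6.70 CPM elsewhere. Smoc2, which encodes a secreted matrix protein of the crypt base, was at 39.4 and 60.7 CPM, against 4.24 and 16.6 CPM. Each of these 3 markers was thus higher in the cluster than in the other cells summed, in both libraries. Against single clusters of the DSS library this did not hold beyond counting error. Smoc2 was at 60.02 CPM (53.42 to 67.21) in DSS cells of cluster 4. Ascl2 was at 27.46 CPM (19.24 to 38.02) and Lgr5 at 20.6 CPM (13.57 to 29.97) in DSS cells of cluster 13. In normal cells of cluster 13 Smoc2, Ascl2 and Lgr5 were lower than in normal cluster 2, at 18.15, 10.73 and 2.475 CPM. Cd44, a surface glycoprotein and Wnt target, was at 108 and 62.7 CPM, against 11.8 and 19.7 CPM. Slc12a2, the sodium, potassium and chloride cotransporter of crypt cells, was at 391 and 412 CPM against 52.6 and 119 CPM. Because the clusters were formed on the expression of these same cells, the cluster against the rest is a description and not a test.

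**Figure D1:**
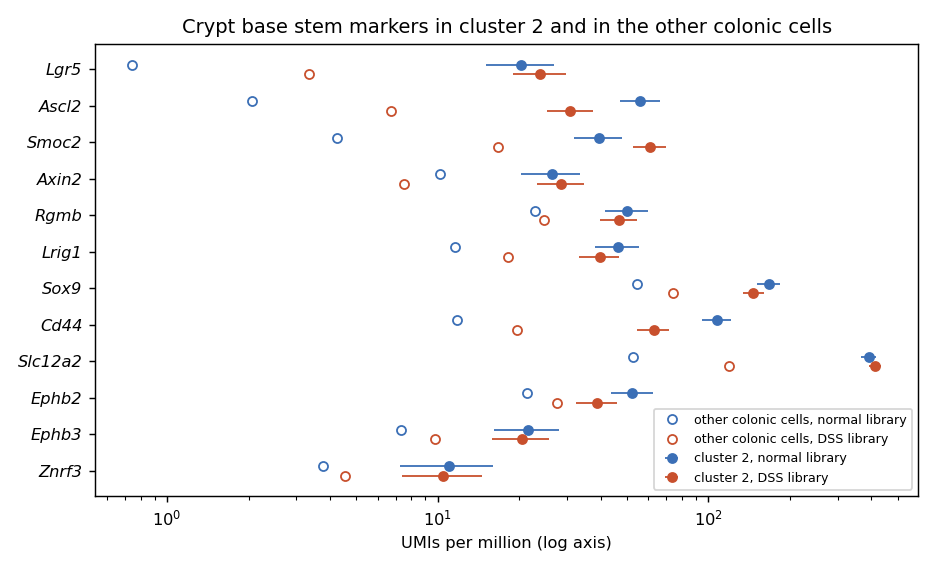
Level of each crypt base stem marker in CPM (log axis), with filled points for cluster 2 and open points for all other colonic cells of the same library, and bars for exact Poisson 95% intervals of counting error. All 12 markers lie to the right of the open points in both libraries, with Lgr5 at 20.3 and 23.9 CPM and Slc12a2 at 391 and 412 CPM.

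Markers of colonocytes, goblet cells, deep crypt secretory cells and enteroendocrine cells were lower in the cluster than around it. Colonocyte markers summed to 2937 CPM in normal and 2946 CPM in DSS cells, against 26800 and 19854 CPM in the other cells, and goblet markers to 954 and 834 CPM, against 10311 and 7739 CPM. Markers of the deep crypt secretory cells, the neighbours of stem cells at the crypt base, summed to 355 and 239 CPM, against 8879 and 585 CPM. Enteroendocrine markers summed to 12.2 and 19.3 CPM, against 677 and 555 CPM. Tuft markers, which were above the other cells in the normal library, summed to 25.6 and 1.75 CPM, against 13.1 and 13.7 CPM, and haemoglobin and other erythroid markers to 43.9 and 0.292 CPM, against 3.78 and 5.66 CPM. The pan-epithelial list was present, at 16610 and 19406 CPM, but below the other cells (28434 and 26507 CPM), with 1 of its 10 genes above them in both libraries. Leukocyte RNA was low but higher in the DSS library, with the pan-leukocyte list at 2.44 and 27.7 CPM, T cell markers at 4.88 and 24.8 CPM, neutrophil markers at 2.44 and 21.9 CPM and plasma cell markers at 1.63 and 121 CPM. In the other cells the neutrophil list was at 31.1 and 3015 CPM and the plasma cell list at 12.9 and 4522 CPM. Igkc, the kappa light chain of antibodies, made most of the plasma cell signal in the cluster, and 139 of its 296 UMIs in the DSS library lay in 1 cell.

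For 11 of the 12 stem markers, cluster 2 held a larger share of the library's UMIs in the normal than in the DSS library, Axin2 being the exception (26.8% and 31.0%), and over 50% of the UMIs lay in cluster 2 for 5 markers in the normal and for 0 in the DSS library. Of all UMIs, cluster 2 held 2460383 of 19906845 in the normal and 3427177 of 32397122 in the DSS library, which is also a larger share in the normal library. In the normal library 79.4% of the 63 Lgr5 UMIs were in cluster 2. In the DSS library 45.8% of the 179 Lgr5 UMIs were in cluster 2, 27.4% in cluster 4 and 15.1% in cluster 13. Ascl2 was spread likewise, with 79.3% of its normal UMIs in cluster 2, and 35.3% of its DSS UMIs in cluster 2 and 39.0% in cluster 4. With every cell thinned to 5000 UMIs, an Lgr5 UMI was held by 6.59% of 91 normal cells and 10.5% of 143 DSS cells that were deep enough, and without thinning the shares were 18.6% and 21.4%. At 1000 UMIs per cell, 0 of 219 normal and 0 of 445 DSS cells of the 6 leukocyte clusters, those in which over 50% of cells held Ptprc, had an Lgr5 UMI, with upper limits of 1.67% and 0.826%. At that depth 4 of 102 normal (3.92%) and 2 of 168 DSS cells (1.19%) of cluster 2 held one, too few to order the libraries.

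Among all genes, 90 of 6667 tested (1.35%) were at least 2-fold higher in cluster 2 than in the other cells in both libraries, and 356 (5.34%) were at least 2-fold lower. A gene was tested where it reached 20 CPM in any of the groups compared, and ratios were taken after adding 5 CPM. Of the 11 stem markers tested, 6 were among the higher genes (Lgr5, Ascl2, Smoc2, Axin2, Cd44 and Slc12a2) and 0 among the lower. Of the 10 Wnt targets tested, 5 were higher and 0 lower. Most of these 10 are stem markers too, and Lgr5, Ascl2, Axin2 and Cd44 were counted in both lists. Myc was the only higher gene that the Wnt list added, so that its count is not separate support. Axin2, a negative regulator that Wnt signals induce, was at 26.4 CPM in normal and 28.6 CPM in DSS cells, against 10.2 and 7.53 CPM, and Myc, the growth regulator, at 68.7 and 63.03 CPM, against 16.9 and 20.9 CPM. Of the 13 tested genes of the Notch and secretory fate list, 2 were higher and 3 lower. Notch1 (52.4 and 49.0 CPM, against 12.0 and 14.01 CPM) and the Notch target Hes1 (197.5 and 230.5 CPM, against 88.4 and 99.3 CPM) were higher, while Atoh1, the driver of the secretory fate, was lower, at 3.66 and 3.79 CPM against 26.9 and 20.6 CPM.

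The 20 leading genes are described by what each is known to do, and no function was tested for enrichment among them. Several act in ion transport. Kcnq1, a potassium channel, was at 124 and 120 CPM in normal and DSS cells of the cluster, against 27.4 and 30.3 CPM in the other cells. Kcne3, its regulatory subunit in crypts, was at 469 and 308 CPM, against 111.5 and 137 CPM. Cftr, the apical chloride channel, was at 101 and 113.5 CPM, against 41.6 and 44.8 CPM. With Slc12a2, which loads chloride into the cell, these are the parts of the chloride secretion route of crypts. Of 28 tested genes of the ion transport list, 4 were higher (Slc12a2, Kcnq1, Cftr and Kcnn4, another potassium channel) and 12 lower, where 1.35% of all tested genes were higher and 5.34% lower. The lower genes included Car1, the carbonic anhydrase of colonocytes, at 541 and 385 CPM against 6832 and 5472 CPM.

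Others act in nucleotide synthesis or growth, for which no list was set. Impdh2 and Paics, enzymes of purine synthesis, were at 256 and 239.8 CPM and at 124 and 109 CPM, against 68.0 and 94.8 CPM and 30.8 and 46.2 CPM. Npm1, a nucleolar protein of ribosome assembly, was at 912.5 and 1096 CPM, against 330.4 and 494 CPM. Cdk4, the kinase of G1 progression, was at 258 and 211 CPM, against 69.4 and 81.1 CPM. Each of these 4 genes was thus at least 2-fold above the other cells in both libraries. Npm1 was not particular to the cluster, being at 970.5 CPM in the normal and 704 CPM in the DSS leukocyte clusters. Impdh2, Paics and Cdk4 were lower in the leukocyte clusters of both libraries than in cluster 2.

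A further group are enzymes. Sord, sorbitol dehydrogenase, led the ranking by the smaller of the 2 library ratios, at 183 and 244.5 CPM against 46.9 and 60.5 CPM. In the normal library alone, Sox4 (8.82-fold) and Slc12a2 (7.43-fold) were above Sord (3.91-fold). Sult1a1, a sulfotransferase, was at 610.5 and 393 CPM, against 256 and 111 CPM, and Aldh1b1, a mitochondrial aldehyde dehydrogenase, at 297 and 379 CPM, against 95.3 and 96.8 CPM. The glutathione transferases Gsta4 and Gstm1, the latter of a family of similar genes among which reads can be split, completed the 4 higher genes of 23 tested on the detoxification list, of which 7 were lower (1.35% and 5.34% of all tested genes). Sox4, a transcription factor of progenitor cells, was at 279.6 and 318 CPM, against 31.7 and 86.2 CPM. The remaining leading genes were Hmgn1, a nucleosome binding protein, Sdc4, a heparan sulfate proteoglycan, Glud1, glutamate dehydrogenase, and the pore-forming claudins Cldn2 and Cldn15. Cldn2 was at 191 and 109 CPM, against 48.8 and 45.3 CPM.

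At the other end, the genes of at least 100 CPM elsewhere that were lowest in the cluster were Spink4 (37.4 and 70.9 CPM, against 2801 and 2935 CPM) and Saa1 (21.1 and 39.7 CPM, against 871 and 1116 CPM), with Ccl5, Chgb and Sval1. Spink4 is a product of goblet cells, Chgb of enteroendocrine cells, Ccl5 a chemokine of lymphocytes and Saa1 an acute phase protein.

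The cluster was most like the 3 clusters next to it. Over 9993 genes, its profile correlated with those of cluster 4 (Pearson r = 0.969), cluster 14 (0.963) and cluster 13 (0.962), where r is across genes, which are not independent, and describes the summed profiles. Cluster 13 carried the markers of division. Mki67, a marker of proliferation, was at 185 CPM in normal and 211 CPM in DSS cells of cluster 13, against 19.9 and 14.01 CPM in cluster 2. Within the DSS library, 134 of 5958 tested genes were at least 2-fold higher in cluster 2 than in cluster 4 and 192 lower. Lgr5 was at 23.9 CPM in DSS cluster 2 and 9.80 CPM in DSS cluster 4, and the stem list summed to 922 and 711 CPM. DSS cells of cluster 13 had Lgr5 at 20.6 CPM (13.6 to 29.97), an interval that overlaps that of DSS cluster 2, and a stem list sum of 792 CPM, and DSS cells of cluster 5, which were rich in Muc2, had a stem list sum of 764 CPM with Lgr5 at 5.79 CPM. The stem list was thus not particular to cluster 2 in the DSS library. Cluster 14, nearly all normal cells, had 0 Lgr5 UMIs and a stem list sum of 232 CPM.

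The same genes were also read across organs, since the methods derive the organoids from the proximal small intestine. The values are those of the stem class (SC in the annotation) of the organoid libraries. These were 3 libraries of ENR-organoids (passages 2 to 7), grown in a conventional medium, 3 of Hyper-organoids (passages 1 to 6), whose medium holds valproic acid and EPZ6438 among other additions, and 2 of -VE-organoids (passages 1 and 6), which lack those 2 compounds. Of the 20 leading genes, 6 were highest in the SC class among organoid classes of at least 20 cells in more than 4 of the 8 organoid libraries, against 6.09% of the 6667 genes tested in the colon, and SC was highest in 62 of 160 gene and library pairs, against 10.2% of the pairs of all those genes. The leading genes had to reach 100 CPM in cluster 2 of both libraries, and the 6667 genes only 20 CPM in any group. These shares are thus not like for like. Paics was highest in SC in 8 libraries and Npm1 and Kcne3 in 7. Of the 12 stem markers, 3 were highest in SC in more than 4 libraries (Ascl2, Lgr5 and Slc12a2), with 32 of 96 pairs. The transit amplifying class was highest for Axin2 in 8 libraries and for Smoc2, Rgmb and Lrig1 in 5 each. Sox4 was highest in the enteroendocrine class (EE) in 8 of 8 organoid libraries.

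Most genes had similar levels in normal and DSS cells of cluster 2, and a limited set differed by 2-fold or more. Of 6064 genes tested, 102 (1.68%) were at least 2-fold higher in the DSS library and 189 (3.12%) at least 2-fold lower, and the median log2 ratio was -0.08. A gene was tested where it reached 20 CPM in either library, so that some genes were tested only through the library in which they were higher. This bears on the list counts below as well as on the counts over all tested genes. Nearly all tested S phase genes were lower, as were 6 of 16 genes of the unfolded protein response in this cluster, while the lectins Reg3b and Reg3g, the oxidase gene Duox2 with its partner Duoxa2 and a few cytokine response genes were higher. Of the higher genes 20, and of the lower genes 29, were also at least 2-fold different in the same direction in the other colonic cells. With TMM scaling, which trims extreme genes before setting the scale, the counts were 127 higher and 137 lower, so that 48.1% of the differing genes were higher in place of 35.1%.

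**Figure D2:**
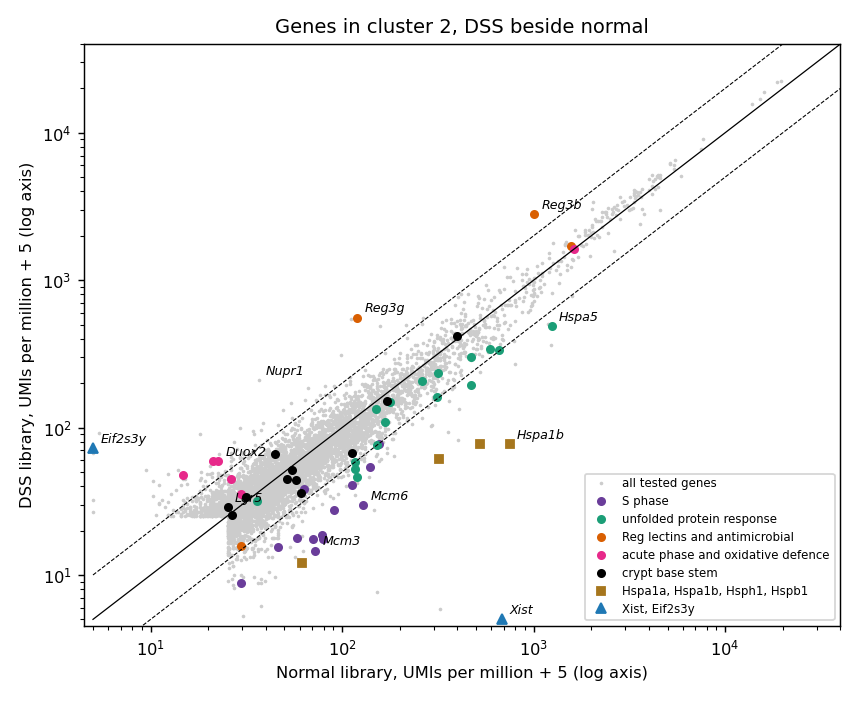
Level of each of the 6064 tested genes in cluster 2 of the normal (x axis) and the DSS library (y axis), in CPM plus 5 on log axes, with named gene groups in colour. S phase genes lie below the diagonal, with Mcm6 at 124 CPM normal and 24.8 CPM DSS, whereas Reg3b lies above it (1003 and 2801 CPM) and Lgr5 close to it (20.3 and 23.9 CPM).

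The summed level of the stem list was alike in both libraries (990 and 922 CPM), while single tested markers differed by less than 2-fold. Of the 11 stem markers tested, 0 were 2-fold higher and 0 were 2-fold lower in DSS cells, close to the shares of all tested genes (1.68% and 3.12%). Their median log2 ratio was -0.09 against -0.08 over all tested genes. The Wnt target list, which shares most of its tested genes with the stem list, had 0 and 0 of 10 with a median of -0.15. The DSS to normal ratio of Lgr5 was 1.18 (0.818 to 1.71) and that of Smoc2 was 1.54 (1.20 to 1.98). Ascl2 was 1.81-fold (1.40 to 2.36) and Cd44 1.72-fold (1.43 to 2.07) above the DSS level in normal cells. The intervals of Ascl2, Cd44 and Smoc2 exclude equal levels as far as counting error goes, and the spread between mice was not measured.

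Among the functional lists, the S phase genes had the most negative median. Of the 16 S phase genes measured, 13 were tested, and 12 of the 13 were at least 2-fold lower in the DSS library, against 3.12% of all tested genes. Their median log2 ratio was -1.70, against -0.34 in the other colonic cells and -0.08 over all genes in the cluster. The summed level of the list was 1099 CPM in normal and 329 CPM in DSS cells of cluster 2, and 406 and 297 CPM in the other cells. Normal cells of the cluster were thus above their surroundings in these genes, and DSS cells were close to theirs. Among the lower genes, Mcm2, Mcm3 and Mcm5 reached 20 CPM only in the normal library, so that the filter bears on the count of 12. The summed level covers all 16 genes, also those not tested, such as Rrm2 (11.4 and 5.25 CPM).

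The 4 most negative ratios of the list belonged to Mcm3, Mcm5, Mcm6 and Mcm2, which encode subunits of the MCM complex, which is loaded on replication origins and unwinds DNA. Mcm3 was at 67.5 CPM in normal and 9.63 CPM in DSS cells, a ratio of 7.01 (4.80 to 10.5). Mcm6 was at 124 and 24.8 CPM, a ratio of 4.98 (3.91 to 6.41). Mcm5 was at 74.4 and 12.6 CPM, and Mcm2 at 73.6 and 13.7 CPM. In the other cells these 4 genes lay between 8.87 and 22.5 CPM in both libraries, so that normal cluster 2 lay above the sum of its surroundings and DSS cluster 2 close to it. Clusters next to it were also high, with Mcm6 at 114 CPM in the 11 normal cells of cluster 4 and at 156 CPM in normal cells of cluster 13.

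Promoters of the 3 of these 4 genes that hold an E2F-type motif, from 250 bases before to 50 bases after the start site, are shown because MCM genes are known targets of E2F factors, which act at the entry into S phase. They are RefSeq sequences of GRCm38.p6, for Mcm3 chr1:20820263-20820562 (minus strand), for Mcm5 chr8:75109259-75109558 (plus strand) and for Mcm6 chr1:128359656-128359955 (minus strand). Capitals mark the letters TTTCCCGC, TTTCGCGC, TTTGCCGC or TTTGGCGC on either strand, and matches may overlap.
Mcm3: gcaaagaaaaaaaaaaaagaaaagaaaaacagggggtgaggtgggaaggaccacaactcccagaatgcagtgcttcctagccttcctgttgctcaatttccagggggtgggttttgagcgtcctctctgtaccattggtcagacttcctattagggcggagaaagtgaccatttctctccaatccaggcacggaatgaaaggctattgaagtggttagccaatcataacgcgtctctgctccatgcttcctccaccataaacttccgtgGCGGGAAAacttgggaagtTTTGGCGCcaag
Mcm5: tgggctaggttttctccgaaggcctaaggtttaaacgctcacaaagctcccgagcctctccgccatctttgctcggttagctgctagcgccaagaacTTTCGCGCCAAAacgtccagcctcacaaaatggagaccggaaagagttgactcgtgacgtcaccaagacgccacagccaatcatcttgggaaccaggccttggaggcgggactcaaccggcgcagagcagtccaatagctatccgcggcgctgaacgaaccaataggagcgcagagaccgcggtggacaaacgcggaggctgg
Mcm6: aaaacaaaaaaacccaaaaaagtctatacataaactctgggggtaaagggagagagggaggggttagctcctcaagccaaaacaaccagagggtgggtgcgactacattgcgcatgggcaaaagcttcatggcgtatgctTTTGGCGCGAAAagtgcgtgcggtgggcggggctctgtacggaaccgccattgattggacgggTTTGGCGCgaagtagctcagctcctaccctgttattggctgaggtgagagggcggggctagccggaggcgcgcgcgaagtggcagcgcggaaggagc
The first bases of the matches lay 19 and 38 bases after the start of Mcm3, 153 and 149 bases before that of Mcm5, where they overlap, and 110, 106 and 47 bases before that of Mcm6, where the first 2 overlap. At least 1 match was present in 2.265% of all 32851 promoters of this length, in 5 of the 14 S phase genes with a promoter in the table (also Mcm7 and Cdc6), and in 29 of the 155 genes lower in DSS cells (18.7%) against 5.10% of the 4821 tested genes with a promoter. Mcm2 has a promoter in the table with 0 matches and Mcm4 has none there. Of the 77 genes higher in DSS cells with a promoter, 2 held it. The lower genes were chosen on these same data and include S phase genes, so that their share is a description and not a test. A match is a description of these letters, not a bound site.

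The remaining S phase genes had smaller ratios. Pcna, the sliding clamp of DNA polymerase, was at 107 CPM in normal and 35.9 CPM in DSS cells, Dut, which removes dUTP, at 135 and 49.3 CPM, and Slbp, which binds histone mRNA, at 150 and 71.8 CPM. Tyms, thymidylate synthase, differed by less than 2-fold after the added 5 CPM, at 58.1 and 33.6 CPM. Hells, a chromatin remodeler of replicating cells (51.6 and 8.17 CPM), and Tipin, a replication fork protein (57.7 and 9.63 CPM), are not on the list and were among the 15 genes with the most negative ratios of the cluster.

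**Figure D3:**
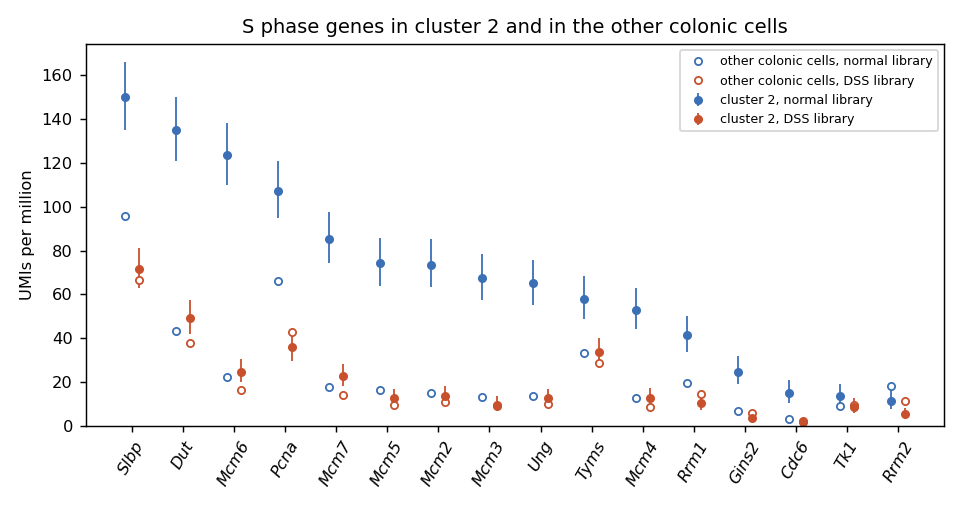
Level of each S phase gene in CPM, with filled points for cluster 2, bars for exact Poisson 95% intervals and open points for the other colonic cells. The normal cells of cluster 2 lie above the DSS cells at each gene, for example at 67.5 against 9.63 CPM for Mcm3 and 107 against 35.9 CPM for Pcna.

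The difference was spread over cells. After each cell was thinned to 5000 UMIs, which left out 11 normal and 25 DSS cells, the 91 normal cells had a median of 5 S phase UMIs (quartiles 2 and 8, highest 20) and the 143 DSS cells a median of 1 (quartiles 0 and 3, highest 14). Cells with at least 5 such UMIs were 50 of 91 (54.95%, 44.2 to 65.4%) in the normal and 9 of 143 (6.29%, 2.92 to 11.6%) in the DSS library. The same direction was seen in cluster 4, with 44.4% of 9 normal and 7.73% of 194 DSS cells, in cluster 13 (82.4% and 58.5%) and in the leukocyte clusters (29.2% of 24 and 10.3% of 87 cells), so that it was not particular to cluster 2.

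The genes of mitosis differed less. The G2 and mitosis list summed to 465 CPM in normal and 341 CPM in DSS cells, with a median of 1 UMI per thinned cell in both, and cells with at least 5 such UMIs were 8.79% and 4.90%. Of its 3 tested genes, Ube2c, a ubiquitin-conjugating enzyme of anaphase, was higher in DSS cells (14.6 and 43.5 CPM) with 29 of 149 UMIs in 1 cell. Birc5, survivin, was lower (20.7 and 7.00 CPM), with 24 of its 51 normal UMIs in 1 cell. Ccnd1, the G1 cyclin, was at 237 and 140 CPM. The UMIs of Mki67 lay mostly in cluster 13, with 61.04% of them in the normal and 51.7% in the DSS library.

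The same genes were read in the neighbouring clusters, since the boundary of cluster 2 decides which cells are compared. In DSS cluster 4 the median was 1 S phase UMI per thinned cell, as in DSS cluster 2, and the list summed to 407 CPM. In cluster 13 the median was 11 in normal and 5 in DSS cells, and the list summed to 2087 and 1550 CPM. With clusters 2, 4 and 13 summed, which held 149 annotated cells (13.2%) of the normal and 452 (23.4%) of the DSS library, the list was at 1413 and 533.5 CPM, with 11 of its genes at least 2-fold lower and a median log2 ratio of -1.42. In the same clusters summed, the G2 and mitosis list was at 1219 CPM in normal and 787 CPM in DSS cells, with 0 genes 2-fold lower and a median log2 ratio of -0.64. The part that sex, library or the setting of cluster boundaries has in these differences was not tested.

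**Figure D4:**
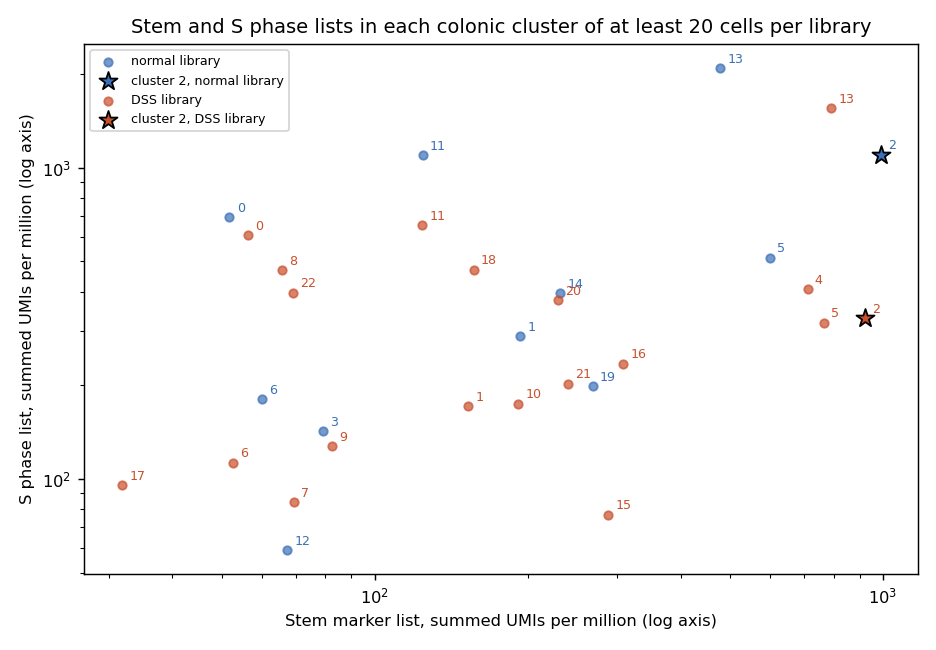
Summed level of the stem marker list (x axis) and of the S phase list (y axis) in each colonic cluster of at least 20 cells in a library, in CPM on log axes, with cluster numbers beside the points and stars for cluster 2. Cluster 2 has the highest stem sums, 990 and 922 CPM, at S phase sums of 1099 CPM in the normal and 329 CPM in the DSS library.

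Genes of the unfolded protein response, by which cells adjust folding capacity in the endoplasmic reticulum, were lower in DSS cells of the cluster. Of 16 tested, 6 were at least 2-fold lower (3.12% of all tested genes) and 0 were above the normal level, with a median log2 ratio of -0.88 against -0.15 in the other cells. Hspa5, the chaperone BiP, was at 1239 CPM in normal and 483 CPM in DSS cells of cluster 2, a ratio of 2.56 (2.41 to 2.72), and at 1203 and 862 CPM in the other cells. Sdf2l1, a partner of BiP, was at 114.6 and 40.9 CPM, Manf, a secreted protein of the same response, at 464 and 189 CPM, and Creld2, likewise of the endoplasmic reticulum, at 112 and 47.6 CPM. The smallest differences of the list were those of the transcription factors Ddit3, at 30.9 and 26.8 CPM, and Xbp1, at 146 and 129 CPM. The list gave a median of 24 UMIs per thinned normal cell and 12 per DSS cell.

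This second difference was not particular to cluster 2, and its size depended on the cluster read. In DSS cluster 4 the list summed to 6401 CPM and Hspa5 was at 1422 CPM, against 2860 and 483 CPM in DSS cluster 2 and 5305 and 1239 CPM in normal cluster 2. Read within a cluster, the list was at 6653 CPM in the 11 normal cells of cluster 4, at 5578 CPM in normal and 5678 CPM in DSS cells of cluster 13, at 11488 and 7987 CPM in cluster 5 and at 3604 and 2132 CPM in cluster 6. In cluster 1 the list was at 5319 CPM in normal and 2626 CPM in DSS cells. Hspa5 was at 1423 and 492 CPM in cluster 1, 2544 and 1396.5 CPM in cluster 5 and 994 and 389 CPM in cluster 6. It was at 1268 and 931 CPM in cluster 13, and at 1395 CPM in the 11 normal cells of cluster 4. With clusters 2, 4 and 13 summed, where cluster 4 gave 11 normal and 230 DSS cells, the median log2 ratio of the list was -0.12.

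Some heat shock genes, for which no list of their own was set, were among the most negative ratios. Hspa1b and Hspa1a, the inducible 70 kDa chaperones, whose near-identical copies may share reads, were at 744.6 and 521 CPM in normal and at 72.1 and 71.8 CPM in DSS cells of the cluster, with log2 ratios of -3.28 and -2.78. In the other cells the ratios were -3.14 and -2.86. Hsph1, an exchange factor of these chaperones, was at 316 and 56.6 CPM. Hspb1, a small heat shock protein, was at 56.9 and 7.00 CPM, with 37 of its 140 normal UMIs in 1 cell and a log2 ratio of -2.37 against -0.56 in the other cells. Hsp90aa1 was at 1231 and 361 CPM, and Dnajb1, a cochaperone named here after its values were seen, differed less, at 310.1 and 202 CPM (log2 ratio -0.60, and -0.50 in the other cells). The immediate early genes, which rise within minutes of cell stress and dissociation, did not share this direction, with Fos at 2262 and 2896 CPM and Atf3 at 811 and 1198 CPM. The list of both kinds had 0 of 16 genes 2-fold higher and 3 lower (1.68% and 3.12% of all tested genes), with a median of 0.35.

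A few interferon-induced genes were lower in the cluster and outside it. Of 13 tested genes of the MHC class I and interferon list, 0 were 2-fold higher and 3 were 2-fold lower (1.68% and 3.12% of all tested genes), while 4 were above the normal level (highest Irf1, at 65.4 and 96.3 CPM). Isg15, a ubiquitin-like modifier, was at 36.6 and 5.54 CPM in cluster 2 and at 478 and 32.9 CPM in the other cells. Bst2, which tethers budding virus particles, was at 111 and 37.6 CPM, and Irf7, the interferon regulatory factor, at 41.9 and 18.1 CPM.

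Among the genes higher in DSS cells were Reg3b and Reg3g, secreted lectins that act against bacteria. They were the 2 higher of 4 tested genes of the Reg and antimicrobial list, where 1.68% of all tested genes were higher. The median log2 ratio of the list was 0.80, against 1.23 in the other cells. Reg3b was at 1003 CPM in normal and 2801 CPM in DSS cells of the cluster, a ratio of 2.79 (2.67 to 2.92), and at 1126 and 7198 CPM in the other cells. Reg3b was found in 29 of 102 normal cells and in 159 of 168 DSS cells of the cluster. In the normal library 915 of its 2467 UMIs lay in 1 cell, and without the 3 cells with the most UMIs in each library its level was 105 and 2236 CPM. Reg3g was at 114.6 and 549.7 CPM, and without those cells at 27.6 and 447 CPM. UMIs of Reg3b were thus found in a minority of normal cells of the cluster and in most DSS cells.

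The leukocyte clusters, which are not known to make these lectins, held them too. At 5000 UMIs per cell, 14.3% of normal and 76.9% of DSS cells of cluster 2 held a Reg3b UMI, but so did 8.33% of 24 normal and 65.5% of 87 DSS cells of the leukocyte clusters. The level of Reg3b in the leukocyte clusters was 28.5 and 404 CPM, below that of cluster 2 in the same library. For Reg3g the shares were 14.3% and 57.3% in cluster 2 and 0% (0 of 24 cells, upper limit 14.2%) and 14.9% in the leukocyte clusters. The part of free RNA or of mixed droplets in these values was not tested. DSS cluster 4 was at 143 CPM of Reg3b and DSS cluster 1 at 16009 CPM, so that DSS cluster 2 lay between them.

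**Figure D5:**
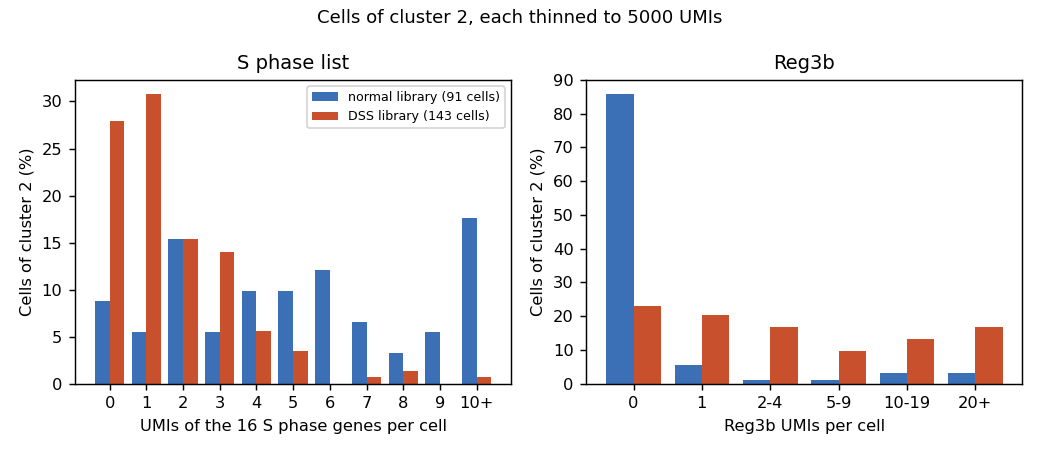
Share of the cells of cluster 2 (percent) by UMIs of the 16 S phase genes (left) and by Reg3b UMIs (right), each cell thinned to 5000 UMIs, for 91 normal and 143 DSS cells. Of the normal cells 54.95% hold 5 or more S phase UMIs against 6.29% of the DSS cells, and a Reg3b UMI is held by 14.3% of normal and 76.9% of DSS cells.

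Further defence genes were higher as well. Of the 6 tested genes of acute phase and oxidative defence, 3 were at least 2-fold higher, against 1.68% of all tested genes, with a median log2 ratio of 1.09 in the cluster and 0.91 in the other cells. Duox2, the oxidase that makes hydrogen peroxide at the epithelial surface, was at 17.5 CPM in normal and 54.3 CPM in DSS cells, and its maturation factor Duoxa2 at 16.3 and 54.0 CPM. Il1rn, the antagonist of interleukin 1, was at 9.76 and 42.3 CPM. Duox2, Duoxa2 and Il1rn, the 3 higher genes, reached the 20 CPM needed for testing only in the DSS library. The filter thus bears on their count, which is not read as support for a difference of the list. Gpx2, the glutathione peroxidase of the gut, was level at 1611 and 1618 CPM. Of 13 genes of epithelial immune sensing, 2 were higher, Tnfaip3, a brake on NF-kB signals (33.7 and 103 CPM), and Socs3, a brake on STAT3 signals (19.1 and 43.8 CPM). Socs3 likewise reached 20 CPM only in the DSS library. Of 8 chemokines and cytokines, 2 were higher, Il18 (29.3 and 89.3 CPM) and Tnf (28.9 and 63.03 CPM). At 5000 UMIs, the leukocyte clusters held Tnf in 22.99% and Socs3 in 48.3% of DSS cells, against 25.2% and 18.2% of DSS cells of cluster 2. For Tnfaip3 the shares were 57.5% and 28.7%.

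Single genes with the highest ratios had mixed roles. Nupr1, a small stress-induced nuclear protein, was at 31.7 CPM in normal and 204 CPM in DSS cells of the cluster, a ratio of 6.44 (5.09 to 8.25), and at 178 and 349 CPM in the other cells. Plet1, a surface protein of epithelial progenitors and wound edges, was at 13.01 and 85.8 CPM. Grb7, an adaptor of receptor kinases, was at 17.9 and 60.7 CPM, with no cell above 5 of its 208 DSS UMIs. Ceacam10, of the CEA family, was at 60.97 and 181 CPM, 1810065E05Rik at 107 and 537 CPM and Gm5485 at 152 and 485 CPM. In the other cells Ceacam10 was at 72.9 and 207 CPM, Plet1 at 79.8 and 241 CPM and 1810065E05Rik at 1361 and 3300 CPM. These differences were thus not particular to cluster 2. Grb7 (17.5 and 27.2 CPM) and Gm5485 (178 and 235 CPM) differed less in the other cells. At 5000 UMIs per cell, Gm5485 was held by 79.0% of DSS cells of cluster 2 and 3.45% of DSS cells of the leukocyte clusters, 1810065E05Rik by 61.5% and 36.8%, and Nupr1 by 35.0% and 22.99%. AW112010 was at 24.4 and 93.95 CPM, with 77 of 322 DSS UMIs in 1 cell, and was held by 74.7% of DSS cells of the leukocyte clusters at 5000 UMIs, against 18.9% in cluster 2.

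The most negative ratios included genes that differed outside the cluster too. Gm47283, annotated on the Y chromosome of GRCm38 at chrY:90784738-90816464, was at 320 CPM in the normal library, which held Xist, and at 0.875 CPM in the DSS library. Gm42031, a noncoding RNA gene on chromosome 8, was at 147 and 2.63 CPM and was lower in the other cells too (90.0 and 2.52 CPM). Sycn, a secretory granule protein, was at 397 and 77.6 CPM, with 176 of 976 normal UMIs in 1 cell. Ifi27l2a, an interferon-induced gene, was at 141 and 22.8 CPM, with 83 of 348 normal UMIs in 1 cell. Cycs, cytochrome c, was the 1 gene of 20 on the respiratory chain list that was 2-fold lower, at 782 and 379 CPM. That count is near the 3.12% of all tested genes that were lower.

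Genes linked to injury and to a fetal-like state of the epithelium showed a partial difference. Of 14 tested genes of this list, 3 were higher and 0 lower (1.68% and 3.12% of all tested genes), with a median of 0.50. Areg, an EGF receptor ligand, was at 209.7 and 489 CPM in cluster 2, a ratio of 2.33 (2.11 to 2.58), and at 612 and 543 CPM in the other cells. Among single clusters, Areg was at 626 and 747 CPM in cluster 1, at 186 and 189 CPM in cluster 5 and at 280.5 and 264 CPM in cluster 13. Clu, clusterin, was at 8.54 and 33.0 CPM, with 38 of 113 DSS UMIs in 1 cell, and without the 3 highest cells at 5.50 and 17.9 CPM. Of the 3 higher genes, Clu and Il1rn reached 20 CPM only in the DSS library, so that the filter bears on that count. Anxa1, annexin A1, was at 85.4 and 163 CPM and Ly6a, the surface protein SCA1, at 136 and 90.8 CPM, neither of them 2-fold different. Of 33 tested genes of the regenerative up-list that the study compiled from published injury models, DSS colitis among them, 8 were higher and 1 lower, where 1.68% of all tested genes were higher and 3.12% lower, with a median of 0.28 against 0.24 in the other cells. Reg3g, AW112010, Reg3b and Duoxa2 led it. Among its higher genes, Duoxa2, Duox2 and Socs3 reached 20 CPM only in the DSS library. Of 40 tested genes of the matching down-list, 1 was higher (Bco2, a carotenoid oxygenase) and 1 lower (Car4), close to those shares of all tested genes, with a median of 0.21. Since these lists were chosen by the study with DSS injury in view, they are not independent evidence of a direction.

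Single genes of differentiated cells differed between the libraries, in both directions. Slc26a3, the chloride and bicarbonate exchanger of colonocytes, was at 7.72 CPM in normal and 30.4 CPM in DSS cells of cluster 2 and at 255 and 109 CPM in the other cells. Car4, a carbonic anhydrase, was at 32.9 and 9.92 CPM. Of 8 tested goblet markers, 2 were higher (Zg16 and Muc2) and 3 lower (Clca1, Fcgbp and Agr2), where 1.68% of all tested genes were higher and 3.12% lower. Muc2, the main mucin, was at 93.5 and 305 CPM, but 153 of 230 normal and 853 of 1045 DSS UMIs lay in 1 cell each, and without the 3 highest cells it was at 26.3 and 45.1 CPM. At 5000 UMIs it was held by 19.8% of normal and 16.8% of DSS cells of cluster 2, below the 29.2% and 36.8% of the leukocyte clusters, so that no difference is read from it. Zg16, a goblet lectin, was at 7.32 and 43.5 CPM, and its share of DSS cells at 5000 UMIs was 15.4% in cluster 2 and 46.0% in the leukocyte clusters, so that no expression is read from it. Agr2, a goblet disulfide isomerase, was at 519 and 235 CPM, with 449 of 1278 normal UMIs in 1 cell. Clca1 and Fcgbp, secreted mucus components, were at 32.5 and 4.38 CPM and at 40.6 and 12.8 CPM, with 57 of 80 and 80 of 100 normal UMIs in 1 cell.

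The BMP and Id list held no gene with a 2-fold difference, close to the shares of all tested genes (1.68% higher and 3.12% lower). These shares also stand beside the counts of the other lists below. Id1, a target of BMP signals, was at 450.3 CPM in normal and 804 CPM in DSS cells of the cluster, a ratio of 1.79 (1.67 to 1.92), and at 556 and 360 CPM in the other cells. Among single clusters, Id1 was at 415 and 433 CPM in cluster 1, at 167 and 182 CPM in cluster 5 and at 599 and 446 CPM in cluster 13. Of 5 tested genes of the BMP and Id list, 0 were 2-fold higher or lower and 4 were above the normal level, with a median of 0.43 against -0.62 in the other cells. Of 11 tested Notch and secretory fate genes, 0 were 2-fold different, with a median of 0.10. The lists of detoxification (20 genes), fat oxidation and ketogenesis (17), cell death and p53 (11), S100 and annexins (12) and keratins and junctions (18) likewise had 0 genes 2-fold higher and 0 lower, with medians of 0.23, -0.09, -0.14, 0.30 and 0.31. Of 18 genes of glycolysis and hypoxia 1 was higher, Ndrg1, a hypoxia-induced gene, at 15.4 and 49.6 CPM.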

How the data were processed

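Single cells were read from the deposited raw UMI counts per gene and barcode, which the authors made with Cell Ranger (3.0.0 in the submitters' processing notes, on mm10) and annotated after Seurat 3.1.4. The deposited annotation gave library, kept cells and cluster; how the colonic clusters were formed is not given in the sources used here. The total of each kept cell equalled that in its library matrix. Per-sample columns not used numbered 0. The cluster, the gene lists and the comparisons were chosen with earlier results of these data known.

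UMIs were summed over the cells of a cluster and library and scaled to a total of 1000000 (CPM). Ratios are log2 of CPM plus 5, over genes of at least 20 CPM in a group compared, and a 2-fold ratio was counted. With 1 library per treatment no test was made. Intervals of 95% were exact (Poisson, conditional binomial, Clopper-Pearson). Cells were thinned to 5000 UMIs for shares of cells. Named genes were the 20 with the largest and the 5 with the most negative ratio of cluster to other cells among genes of at least 100 CPM, the 15 highest and 15 lowest ratios of DSS to normal among genes of at least 50 CPM found in at least 10% of cells, and up to 4 from each end of a list. For the ratio of cluster to other cells, the library nearer to equal levels was ranked. Gene lists were set by hand from general knowledge, apart from the study's regenerative lists. Doublets predicted with Scrublet in scanpy 1.11.5 stayed in. TMM factors came from edgeR 4.0.16 in R 4.3.3, without its test. Python 3.11.15, scipy 1.17.1 and pandas 2.3.3 were used. The counting was tested on simulated data with 200 changed genes. Promoters are RefSeq (GRCm38.p6) and gene positions GENCODE vM21. Alternatives covered the cell filter, weight of cells, pseudocount, gene filter, leukocyte RNA, doublets, scaling and depth.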

Additional observations from a re-analysis of the deposited data

Results flagged for a closer look

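Among the tested named and listed genes, 6 had a DSS to normal ratio of at least 2-fold in cluster 2 that pointed the other way in the remaining colonic cells, with the counting interval of the ratio clear of equal levels both inside and outside the cluster. These differences were not tested, since each treatment had 1 library. The remaining cells held a different mix of clusters in each library, and the part of that mix in their ratios was not tested. Areg was at 626 CPM in normal and 747 CPM in DSS cells of cluster 1, at 186 and 189 CPM in cluster 5 and at 280.5 and 264 CPM in cluster 13. The opposite direction of Areg was thus not seen in clusters 1 and 5. All ratios in the rest of this paragraph are log2 ratios. 2210407C18Rik was at 1.54 in the cluster and -0.63 outside it, Areg at 1.20 and -0.17, and Slc26a3 at 1.47 and -1.18. B3gnt7, a glycosyltransferase, was at -1.33 in the cluster and 0.90 outside. Without the 3 cells with the most UMIs of the gene in each library, these 4 ratios in the cluster were 1.59, 1.31, 1.76 and -1.31. Muc2 was at 1.65 and -0.45, and at 0.68 without those cells. Its ratio in the cluster was 3.1 without cells holding a Ptprc UMI and 3.14 when the top 5% of cells by doublet score were left out, and the share of cells holding it at 5000 UMIs was 19.8% in normal and 16.8% in DSS cells, against 36.8% in DSS cells of the leukocyte clusters. Hbb-bs, a haemoglobin chain, was at -2.51 and 0.25, and at 0.00 without those cells, since 60 of its 62 normal UMIs lay in 1 cell.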

How the results depend on the processing

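No paired analysis was possible because each treatment had 1 library and no result comes from a test across samples. Cluster 2 held 10.9% of normal and 10.5% of DSS cells under the stated filter of 1500 genes and 25% mitochondrial UMIs, and 10.84% and 10.49% without cells holding a Ptprc UMI. Of the 4 counts of genes (90 higher and 356 lower than the other cells, 102 higher and 189 lower in DSS cells), the mean of per-cell CPM gave 191, 626 and 181 for the first 3. A pseudocount of 1 CPM gave 140 for the first. A minimum of 5 CPM gave 159 for the third, and one of 100 CPM gave 37, 156, 20 and 61 for all 4. Scaling without mitochondrial, immunoglobulin, ribosomal protein and haemoglobin genes gave 192 and 160 for the first and the third. Thinning to 5000 UMIs gave 143 for the first and 270 and 357 for the last 2. With genes of at least 100 CPM, cluster 13 came first among the nearest clusters (r = 0.968). Lgr5 was held by 18.6% of normal and 21.4% of DSS cells of cluster 2 unthinned, against 6.59% and 10.5% at 5000 UMIs, and by 1.19% of DSS cells at 1000 UMIs. Reg3b was held by 28.4% and 94.6% unthinned and by 5.88% and 51.2% at 1000 UMIs, against 14.3% and 76.9%. The median of the MHC class II list, which rests on 1 tested gene, was -0.59 in cluster 2 and 1.84 with clusters 2, 4 and 13 summed. Over the 469 values of single named genes under alternatives, 386 stayed within the counting error of the log2 ratio (or 0.1, if larger), 83 moved further and 0 turned sign. Of 260 list medians, 240 stayed within 0.3, 19 moved further and 1, the MHC class II list, turned sign from a size of at least 0.5. The S phase list had 11 or 12 genes at least 2-fold lower and the unfolded protein response list 4 to 8, over the scalings and cell filters tried. Leaving out the 3 cells with the most UMIs, summing 3 clusters and thinning to 1000 UMIs were chosen after seeing the data. Depth limits low genes, since 3 UMIs in the cluster correspond to 1.22 CPM in the normal and 0.875 CPM in the DSS library.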
